A study of Mus musculus with 4 samples.

Results

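Striated and smooth muscle of the newborn mouse esophagus were compared as 2 sets of capture spots in 2 sections taken at postnatal day 0 (P0). In each section, spots over tissue with at least 500 unique molecular identifiers (UMIs, counts of captured RNA molecules) were scored as the mean of log(1 + UMIs per 10000) over 6 striated muscle genes (Acta1, Actc1, Myh3, Myh8, Tnnt3, Mylpf) and over 6 smooth muscle genes (Myh11, Acta2, Tagln, Cnn1, Actg2, Lmod1). The spots were thus chosen by their levels of these 12 genes. The highest 15% by each score formed the striated and the smooth side, and spots in both were dropped. This gave 49 striated and 49 smooth spots among 363 in section 1, and 34 and 34 among 264 in section 2, with 5 and 6 spots dropped. The 166 chosen spots belong to 627 kept P0 spots and to 7435 kept spots in all 4 sections of the series. The other P0 spots, 260 and 190, are called the rest and hold mainly epithelium and its surroundings.

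The study concerns the part of Lgr5-marked stem or progenitor cells in building the epithelium and muscle of the esophagus. It holds fresh frozen Visium sections of 8 µm: an untreated wild-type mouse embryo at embryonic day E13.5, another at E16.5, and esophagus dissected from untreated wild-type neonates at P0 (sections 1 and 2). The labels do not say whether the P0 sections come from different animals, nor how many animals lie behind a section. The p-values thus rest on how differences between classes of spots vary between these 2 sections, which may be technical. A gene has 2 residual degrees of freedom for this, and its estimate was pulled towards that of other genes (8.35 prior degrees of freedom). A Visium spot covers several cells, and every spot here is a mixture. Fewer cells of a type and less RNA per cell cannot be told apart in such sums.

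The muscle coat of the mouse esophagus contains both kinds of muscle: smooth muscle is laid down along its whole length in the embryo, and striated muscle then extends from the pharyngeal end towards the stomach until after birth. Striated muscle contracts through ordered sarcomeres of thick myosin and thin actin filaments, is switched on by troponin when the sarcoplasmic reticulum releases calcium, and is built by fusion of myoblasts under the MyoD family of factors. Smooth muscle lacks troponin-based sarcomeres; calcium enters through membrane channels, and myosin light chain kinase switches myosin on. The striated muscle of the esophagus belongs to the branchiomeric muscles of head and neck, whose progenitors use Tbx1, Isl1 and Msc rather than Pax3, a factor of trunk and limb muscle progenitors.

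The spots of a side lay together, and the 2 sides did not touch once spots in both sets were dropped. The dropped spots adjoined both sides, in 2 and 6 neighbour pairs of striated spots and 3 and 2 of smooth spots. The missing contact thus does not show that the 2 kinds of muscle are apart in the tissue. No grid neighbour of a striated spot was a smooth spot, among 158 neighbour pairs of striated spots in section 1 and 107 in section 2. Striated spots made up 43.0% and 59.8% of the neighbours of striated spots, where 49 of 363 and 34 of 264 spots of the sections were striated. Smooth spots made up 33.3% and 69.2% of the neighbours of smooth spots. The tissue lay on the array as separate strips, 3 of at least 20 spots in each section. In the strips that held the most spots of both sides, every striated spot lay nearer to a given end of the strip than every smooth spot (19 striated and 23 smooth spots in section 1, 10 and 33 in section 2). In the other strips with both, the share of pairs of a striated and a smooth spot that lay in 1 order was 0.974 in section 1 (29 striated and 4 smooth spots) and 0.786 in section 2 (14 and 1). A strip of section 1 held 22 smooth and 0 striated spots, and a strip of section 2 held 8 striated and 0 smooth spots. The files do not mark the pharyngeal end of a strip, so the order along it cannot be read as upper or lower esophagus.

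**Figure D1:**
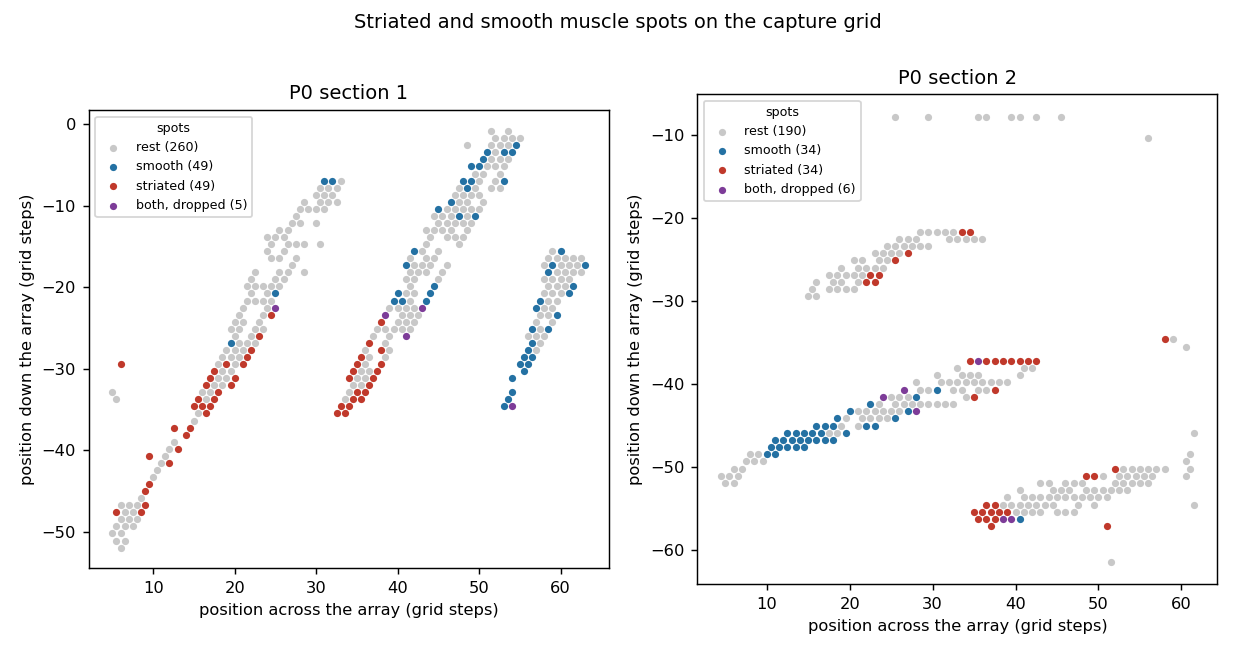
Kept spots of P0 sections 1 and 2 at their positions on the capture grid (both axes in grid steps), coloured as striated, smooth, in both (dropped) or rest, with the number of spots of each class. Striated and smooth spots mostly occupy different stretches of the tissue strips. No striated spot is next to a smooth spot, but dropped spots, which are in both sets, adjoin both.

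Depth was similar but not equal between the sides. Striated spots had medians of 23757 UMIs in section 1 and 26276 in section 2, smooth spots 20783 and 17698.5, and the rest 28449 and 28332. Summed per section, the striated side held 1157469 and 896378 UMIs and the smooth side 1103194 and 633934, so 3 UMIs correspond to 2.59 and 3.35 CPM (UMIs per 1000000 UMIs of the sum) in the striated sums and to 2.72 and 4.73 CPM in the smooth sums. Mitochondrial genes took medians of 6.28% and 5.93% of UMIs in striated spots, 5.47% and 5.58% in smooth spots, and 5.16% and 5.60% in the rest. The striated side contained more epithelium: 6 of 49 and 1 of 34 striated spots were among the 25% of spots with the highest epithelial score of their section, against 0 of 49 and 0 of 34 smooth spots. The P0 sections share 22 spot barcodes, which in Visium mark grid positions and not cells.

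The 12 genes that chose the spots are described here without a test. In what follows, paired values are given for section 1 and then section 2. Mylpf, the fast regulatory light chain of myosin, stood at 2321 and 6589 CPM in striated sums, 23.6 and 52.1 in smooth sums and 40.4 and 137 in the rest. Acta1, skeletal alpha-actin, stood at 1604 and 5095 CPM in striated sums and at 34.4 and 86.8 in smooth sums. Both were thus at or below the level of the rest in smooth spots. Tnnt3, fast troponin T, differed from them: 451 and 1198 CPM in striated sums, 218 and 227 in smooth sums, and 25 and 42 in the rest. Section 2 had the higher levels of all 6 striated genes in its striated sum. The limit of the highest 15% by the striated genes lay between 1.68 (last spot inside) and 1.67 (first outside) in section 2, and between 0.746 and 0.745 in section 1. After spots in both sets were dropped, the lowest striated spot scored 1.74 in section 2 and 0.746 in section 1.

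On the smooth side, Myh11, the smooth muscle myosin heavy chain, reached 3508 and 3243 CPM in smooth sums, against 943 and 611 in striated sums and 506 and 225 in the rest. Actg2, enteric smooth muscle gamma-actin, reached 5216 and 6163 CPM in smooth sums, 1848 and 907 in striated sums and 1039 and 479 in the rest. Striated spots thus also carried smooth muscle RNA above the level of the rest. Summed, the 6 smooth genes took 7719 and 5209 CPM in striated sums, where the 6 striated genes took 7237 and 19916. The striated sum of section 1 thus held more RNA of the smooth than of the striated selecting genes, and that of section 2 the reverse. The limits by the smooth genes lay at 2.96 and 2.50, both inside and outside to this precision, and the lowest smooth spots kept scored 3.0 and 2.50. Of all spots, 79 and 30 spots scored within 10% of the smooth limits, against 15 and 11 spots for the striated limits.

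Promoter sequences show what the 2 sets of genes share before any level is compared. CArG boxes bind serum response factor, which acts in both kinds of muscle; the E box CAGCTG is a form bound by MyoD family factors; and MEF2 sites bind the MEF2 factors. In the 250 bases before RefSeq gene starts (GRCm38.p6), a CArG box on either strand was present in 482 of 32851 promoters (1.47%), CAGCTG in 4271 and a MEF2 site in 959 (2.92%). The 104 genes of the striated contractile, calcium, junction and energy lists and the selecting genes had 96 promoters for 77 genes, of which 7 held a CArG box, 32 CAGCTG (33.3%) and 13 a MEF2 site (13.54%). The 59 smooth genes had 60 promoters for 49 genes, of which 5 held a CArG box, 6 CAGCTG (10.0%) and 1 a MEF2 site (1.67%). CArG boxes thus occurred in promoters of both sets, at 7.29% and 8.33%. In the smooth contractile and cytoskeletal list alone, 5 of 31 promoters (16.1%) held one. Promoters of Myh11, Tagln, Actg2 and Tnnt3 were not available, so the shares of the 2 sets cannot be ranked. A match is a description of letters and not of a bound site, and the motifs were searched on both strands.

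The following promoters are shown because they carry a CArG box in 2 striated actin genes and in 2 genes that were higher in smooth spots. Each run is 5′ to 3′ on the strand of the gene and ends at the base before its start, and capitals mark the CArG box. Acta1 lies at chr8:123894776-123895025, minus strand, Actc1 (cardiac alpha-actin) at chr2:114052876-114053125, minus strand, Myl9 (smooth regulatory light chain of myosin) at chr2:156775214-156775463, plus strand, and Vcl (vinculin, an anchor of actin filaments) at chr14:20929148-20929397, plus strand.
Acta1: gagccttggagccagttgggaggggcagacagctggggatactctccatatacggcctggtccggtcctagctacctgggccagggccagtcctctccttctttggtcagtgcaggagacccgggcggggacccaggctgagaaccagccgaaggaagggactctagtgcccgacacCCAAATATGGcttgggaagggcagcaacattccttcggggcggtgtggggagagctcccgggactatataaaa
Actc1: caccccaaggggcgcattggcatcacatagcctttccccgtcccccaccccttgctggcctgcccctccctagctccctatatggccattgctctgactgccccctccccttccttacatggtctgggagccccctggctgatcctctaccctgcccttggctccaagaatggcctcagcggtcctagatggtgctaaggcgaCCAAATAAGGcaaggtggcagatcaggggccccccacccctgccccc
Myl9: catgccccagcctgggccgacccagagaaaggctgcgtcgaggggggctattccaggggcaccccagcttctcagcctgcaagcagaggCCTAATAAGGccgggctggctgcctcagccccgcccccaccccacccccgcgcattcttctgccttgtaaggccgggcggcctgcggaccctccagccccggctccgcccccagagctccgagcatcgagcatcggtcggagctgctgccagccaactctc
Vcl: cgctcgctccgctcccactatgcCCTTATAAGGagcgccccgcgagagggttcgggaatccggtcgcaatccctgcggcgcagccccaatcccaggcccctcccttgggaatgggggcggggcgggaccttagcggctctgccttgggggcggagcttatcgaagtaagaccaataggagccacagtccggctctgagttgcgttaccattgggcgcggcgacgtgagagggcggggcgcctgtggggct

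The next 3 promoters belong to genes that were higher in striated spots and hold CAGCTG or the letters of a MEF2 site. Atp2a1, the fast calcium pump of the sarcoplasmic reticulum (chr7:126463074-126463323, minus strand), and Ckm, muscle creatine kinase (chr7:19410844-19411093, plus strand), have CAGCTG in capitals. Pgam2, the muscle phosphoglycerate mutase (chr11:5803797-5804046, minus strand), has its MEF2 site in capitals. The CArG box of Acta1 begins 73 bases before the start and the E box of Atp2a1 55 bases before it.
Atp2a1: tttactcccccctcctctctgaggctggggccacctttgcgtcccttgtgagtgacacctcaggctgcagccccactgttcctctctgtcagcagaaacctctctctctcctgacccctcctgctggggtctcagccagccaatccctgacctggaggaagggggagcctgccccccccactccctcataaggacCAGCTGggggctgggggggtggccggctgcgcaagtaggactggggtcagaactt
Ckm: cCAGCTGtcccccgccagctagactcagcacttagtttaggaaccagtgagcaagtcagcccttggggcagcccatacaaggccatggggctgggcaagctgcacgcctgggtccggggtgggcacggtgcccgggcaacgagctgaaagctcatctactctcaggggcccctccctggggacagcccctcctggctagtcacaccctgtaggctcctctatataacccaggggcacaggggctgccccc
Pgam2: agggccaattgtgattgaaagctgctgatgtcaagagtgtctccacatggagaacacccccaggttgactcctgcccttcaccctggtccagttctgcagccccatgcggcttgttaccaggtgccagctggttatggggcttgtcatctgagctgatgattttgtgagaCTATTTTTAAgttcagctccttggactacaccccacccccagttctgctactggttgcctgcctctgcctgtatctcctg

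Across all other genes, 10904 passed the filter on low counts and were tested with edgeR's quasi-likelihood test on the 6 sums (striated, smooth and rest in each section), with the section as a block. Of these, 547 genes (5.02%) were higher in striated spots and 279 genes (2.56%) higher in smooth spots at an adjusted p under 0.05. All 826 (7.58%) had the same sign in both sections, and the median log2 fold change over all genes tested was 0.02. The spots were chosen in these same counts, so genes that accompany the 12 selecting genes had to differ; a gene that passed the filter only through its high side had to differ as well. A random part of each spot's UMIs was also used to choose spots, with only the remaining UMIs counted. Of 8758 genes then tested, 343 were higher in striated and 185 in smooth spots. On those remaining UMIs, 8 of 9 tested thick filament, 6 of 11 thin filament, 9 of 9 Z disc and 6 of 9 myogenic regulator genes were higher in striated spots. In smooth spots, 22 of 27 smooth contractile genes and 3 of 16 transcription factors of smooth muscle and foregut mesenchyme were higher. Both parts of the UMIs come from the same spots, so genes that accompany the selecting genes still had to differ. The split removes only counting error shared with the choice, and the filter acted as before. DESeq2's Wald test on the main sums called 400 and 142.

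The 547 genes fell into groups by their level in the rest of the tissue. Of these genes, 192 were also higher in striated spots than in the rest, in a contrast where 9.88% of genes were higher in striated spots and 8.46% higher in the rest. They include striated muscle genes and the 4 tested blood genes. For 350 others, smooth spots were below the rest and striated spots not above it, a pattern that Krt13 and Krt5, keratins of the epithelium, also showed. Of the 279 genes higher in smooth spots, 268 were above the rest there, in a contrast where 17.4% of genes were higher in smooth spots and 16.1% higher in the rest. Both sides were above the rest for 727 genes, and 588 of those did not pass the test between the sides.

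**Figure D2:**
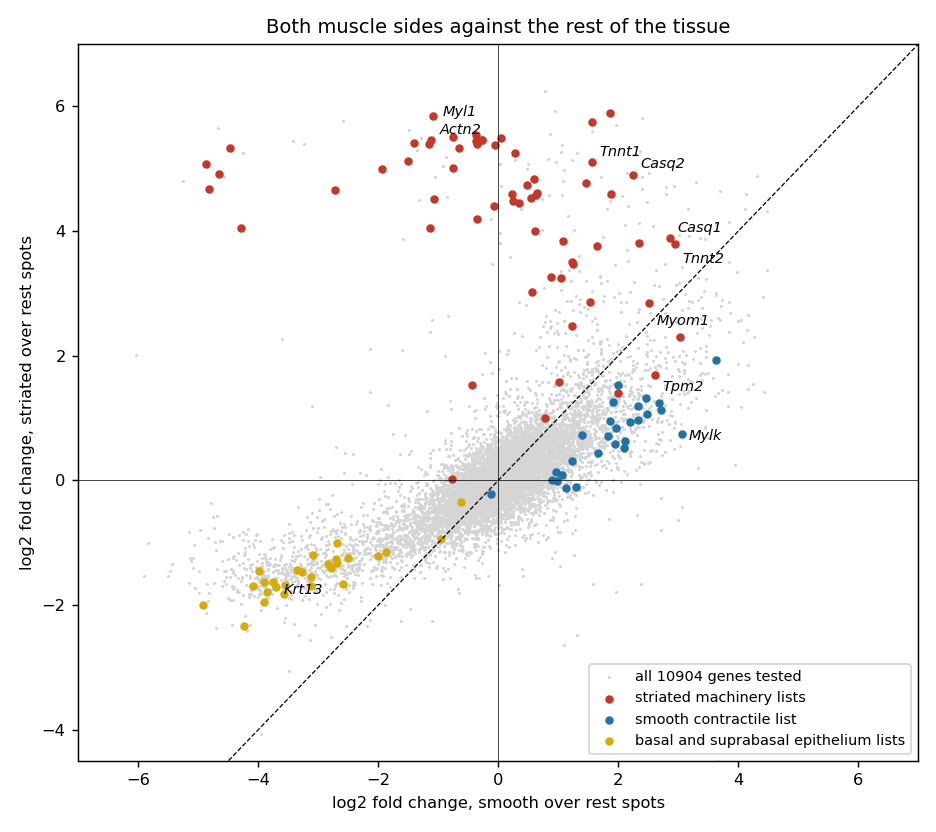
Log2 fold change of striated over rest spots (vertical) against smooth over rest spots (horizontal) for the 10904 genes tested, with the striated machinery, smooth contractile and epithelial lists coloured; on the dashed line the sides are equal. Striated machinery genes form a band at the top whose smooth values run from far below 0 (genes at 0 in smooth sums, whose fitted values are no bounds) to about 3, smooth contractile genes lie below the line, and epithelial genes lie at the lower left above the line.

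Genes of the thick filament lay far on the striated side. Of 16 thick filament genes, 10 were tested; 9 were higher in striated spots, 0 in smooth, with a median log2 fold change of 5.52 (4.85 with genes at 0 in smooth sums set to their bound). Myl1, the fast essential light chain, rose from 7.25 and 28.4 CPM in smooth sums to 843 and 3154 in striated sums (log2 fold change 6.93 ± 0.26, SE; edgeR adjusted p = 7.03e-07). Its level in smooth sums was below that of the rest, 14.8 and 49.7 CPM. Mybph, a myosin-binding protein, had 167 and 265 UMIs in striated sums and 1 and 2 in smooth sums, a pooled ratio of 122 (counting interval 41.4 to 593). Myh1, an adult fast myosin heavy chain, had 26 and 46 UMIs in striated sums and none in smooth sums, at least 9.9-fold more over both sections (at least 8.26 in section 1 and 10.8 in section 2). The adult fast chains Myh4 and Myh2 were near 0, with 2 and 2 and 0 and 2 UMIs in striated sums, where the embryonic chain Myh3 and the perinatal chain Myh8 held 993 and 1784 and 677 and 1498. The myosin heavy chain genes of the skeletal cluster on chromosome 11 are close copies, and reads of them may be split.

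The thin filament list held 15 genes, of which 14 were tested, 10 were higher in striated and 1 in smooth spots (median 4.05, or 3.16 with bounds). Tnnc2, fast troponin C, stood at 669 and 2324 CPM in striated sums and 17.2 and 34.7 in smooth sums (log2 fold change 5.81 ± 0.28, edgeR adjusted p = 1.92e-06). Tnni1, slow troponin I, stood at 477 and 1123 against 11.8 and 6.31 CPM. Neb, nebulin, the ruler of the thin filament, had 132 and 303 UMIs in striated sums and 0 and 7 in smooth sums. Tpm2, beta-tropomyosin, was the member higher in smooth spots, at 5130 and 4936 CPM against 2296 and 2561 (−0.93 ± 0.25, edgeR adjusted p = 0.0497); it missed the threshold in 7 alternatives, with values from −0.94 to −0.76 and edgeR adjusted p from 0.053 to 0.163. Tropomyosins work in both kinds of muscle, and Tpm1 had 2582 and 2753 CPM in smooth and 1327 and 1961 in striated sums without passing (adjusted p = 0.21, edgeR).

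At the Z disc, which anchors thin filaments, 13 of 14 tested genes were higher in striated spots (15 in the list; median 4.35, or 4.13 with bounds). Actn2, sarcomeric alpha-actinin, stood at 259 and 761 CPM in striated sums and 0.906 and 12.6 in smooth sums (6.58 ± 0.34, edgeR adjusted p = 2.32e-06). Ttn, titin, the elastic spring of the sarcomere, stood at 455 and 1032 against 6.35 and 22.1 CPM. Csrp3, a Z disc LIM protein, stood at 228 and 781 against 1.81 and 17.4 CPM. Myoz1, which binds calcineurin at the Z disc, had 15 and 84 UMIs in striated sums and none in smooth sums, at least 14.3-fold more over both sections (at least 4.77 in section 1 and 19.8 in section 2). Without the block Myoz1 lost its call (edgeR adjusted p = 0.0656). Fhl3 was the exception, with 18.1 and 14.5 against 11.8 and 20.5 CPM (adjusted p = 0.829, edgeR).

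**Figure D3:**
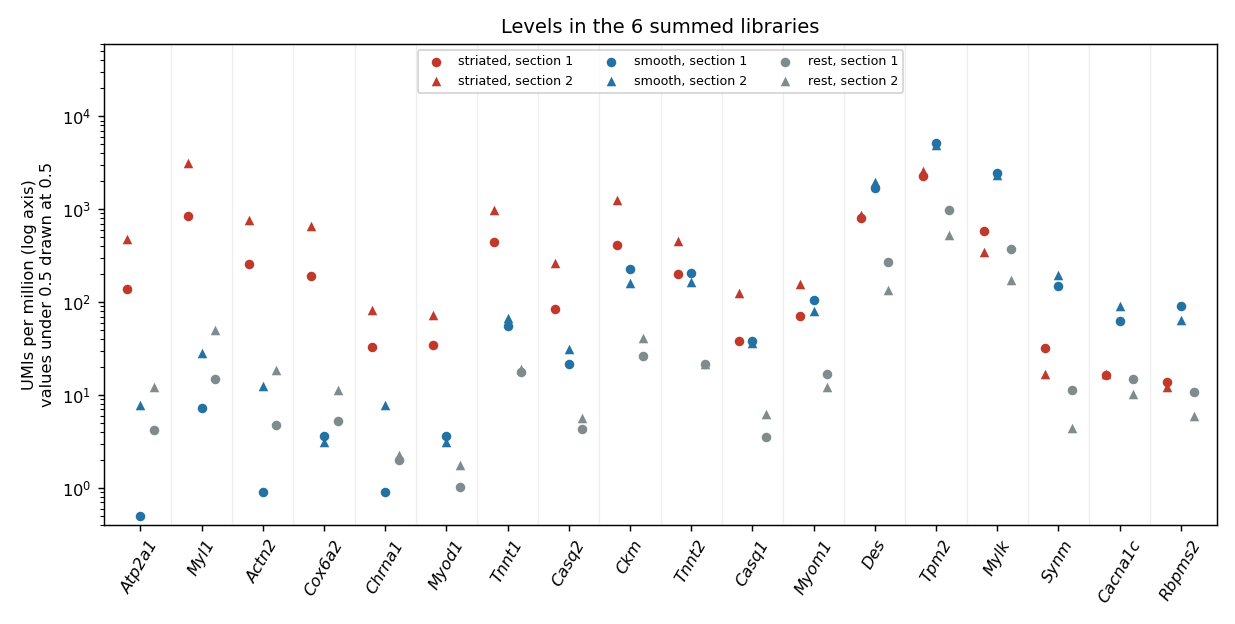
Level of 18 genes in CPM on a log axis in the 6 sums; colour gives the class of spots (striated, smooth, rest) and the symbol gives the section (circle 1, triangle 2). The genes on the left (Atp2a1 to Myod1) are low in smooth spots, with Myl1 at 7.25 and 28.4 CPM. They give way to striated-type genes that smooth spots also hold above the rest (Tnnt1 to Myom1), then to genes higher in smooth spots.

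Not all striated-type genes followed Myl1 and Actn2. Tnnt2, cardiac troponin T, which embryonic skeletal muscle also uses (chromosome 1, 135836315 to 135852268), stood at 202 and 451 CPM in striated sums and 206 and 164 in smooth sums, where the rest held 21.7 and 21.6. The sides overlapped, and the difference did not pass (0.84 ± 0.32, edgeR adjusted p = 0.156), while smooth spots exceeded the rest by 2.95 ± 0.34 (edgeR adjusted p = 0.000121). Casq1, the fast calsequestrin that stores calcium, stood at 38 and 126 CPM in striated and 38.1 and 36.3 in smooth sums, against 3.55 and 6.32 in the rest (smooth over rest 2.87 ± 0.42, edgeR adjusted p = 0.000526). Myom1, myomesin of the M band, stood at 71.7 and 155 against 104 and 80.5 CPM, with 16.7 and 12.1 in the rest. Eno3, muscle enolase, stood at 241 and 628 against 188 and 308 CPM, with 22.9 and 30.4 in the rest. In section 1 the 2 sides were thus level for Tnnt2 and Casq1, and smooth was the higher side for Myom1. In section 2 striated was the higher side for all 4 genes. The striated selecting genes summed to 7237 CPM in the striated sum of section 1 and to 19916 CPM in that of section 2. The part of this in the difference between sections was not tested. Without the rest in the fit, Tnnt2 (edgeR adjusted p = 0.0485), Casq1 (0.0276) and Eno3 (0.0291) passed as higher in striated spots.

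Others were higher in striated spots and still above the rest in smooth spots. Ckm stood at 414 and 1255 CPM in striated sums, 229 and 161 in smooth sums and 26.6 and 41.5 in the rest (striated over smooth 1.98 ± 0.41, edgeR adjusted p = 0.015; smooth over rest 2.48 ± 0.41, edgeR adjusted p = 0.00109). Tnnt1, slow troponin T, stood at 439 and 978, 55.3 and 67.8, and 17.7 and 19 CPM (smooth over rest 1.56 ± 0.30, edgeR adjusted p = 0.00284). Casq2, the cardiac and slow calsequestrin, stood at 84.7 and 264, 21.8 and 31.5, and 4.31 and 5.62 CPM (smooth over rest 2.24 ± 0.41, edgeR adjusted p = 0.00202). Of the tested members, smooth spots were above the rest for 2 of 10 thick filament, 6 of 14 thin filament, 3 of 14 Z disc, 5 of 16 calcium and 8 of 15 energy genes, where 17.4% of all genes were.

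The spots themselves show how widely this RNA was spread. Tnnt2 had a UMI in 44 of 49 and 29 of 34 smooth spots (89.8% and 85.3%), against 40.0% and 63.1% of epithelium-rich spots of the rest. Median depths were 20783 and 17698.5 UMIs in smooth spots against 40290 and 39130 in epithelium-rich spots. Casq1 had a UMI in 46.9% and 44.1% of smooth spots against 5.88% and 20% of epithelium-rich spots, and Actn2 in 2.04% and 20.6% against 14.1% and 40.0%. The Actn2 share in smooth spots thus lay below that of the deeper epithelium-rich spots, and the Tnnt2 and Casq1 shares lay above it. Some smooth spots held no UMI of Mylpf, Acta1, Myl1 or Actn2, a subset chosen after the values were seen: 18 of 49 in section 1 and 2 of 34 in section 2. In the 18 spots of section 1, Tnnt2 stood at 187 CPM, Ckm at 207, Eno3 at 176, Myom1 at 90.9 and Casq1 at 30.3, a little below their levels over all smooth spots of the section. Tnnt3, a selecting gene, stood at 281 CPM there, above its 218 over all smooth spots of the section. Myog had 0 UMIs in the 18 spots, but only 8 over all 49 smooth spots, so its absence says little. The 2 spots of section 2 held 22432 UMIs and are too shallow for these genes. Mylpf and Acta1 also chose the spots, so the subset was cut on values already used, and it rests on section 1. The source of this RNA in smooth spots was not tested.

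Genes of excitation and calcium release had 11 of 16 tested members higher in striated spots and 0 in smooth spots (20 in the list; median 2.99, or 2.96 with bounds). Atp2a1 stood at 138 and 480 CPM in striated sums, with 0 and 5 UMIs in smooth sums (log2 fold change 6.63 ± 0.40, edgeR adjusted p = 6.68e-06). Sln, sarcolipin, which restrains that pump, stood at 256 and 1114 against 5.44 and 4.73 CPM. Cacna1s, the voltage sensor of skeletal muscle, had 24 and 45 UMIs in striated sums and none in smooth sums, at least 9.52-fold more over both sections (at least 7.62 in section 1 and 10.6 in section 2). Ryr1, the calcium release channel it opens, stood at 39.7 and 82.6 against 0.906 and 6.31 CPM. Cacna2d1, an accessory subunit of calcium channels in many tissues, was the member that leaned the other way, with 57 and 105 against 132 and 151 CPM, and did not pass (adjusted p = 0.17, edgeR).

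At the neuromuscular junction, 6 of 8 tested genes were higher in striated spots and 0 in smooth spots (12 in the list; median 3.19). Chrna1, the acetylcholine receptor alpha subunit, stood at 32.8 and 82.6 CPM against 0.906 and 7.89 (3.99 ± 0.53, edgeR adjusted p = 0.00193). Chrng, the gamma subunit of the fetal receptor, had 17 and 53 UMIs in striated sums and 2 and 1 in smooth sums, a pooled ratio of 19.7 (6.48 to 98). Rapsn, which clusters the receptor, stood at 26.8 and 63.6 CPM against 0 and 3.15. Musk, the kinase that organises the junction, had 0 and 0 UMIs in striated sums and 1 and 0 in smooth sums.

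The factors that build striated muscle were on the striated side. Of 15 tested myogenic regulators, 10 were higher in striated spots and 0 in smooth spots (16 in the list; median 2.73). Myog, which drives myoblast differentiation, stood at 174 and 393 CPM in striated sums, 7.25 and 37.9 in smooth sums and 3.93 and 10.7 in the rest (3.93 ± 0.27, edgeR adjusted p = 1.68e-05). Myod1, a factor of muscle commitment, stood at 34.6 and 72.5 against 3.63 and 3.15 CPM. Myf6, a later member of the family, had 32 and 94 UMIs in striated sums and none in smooth sums, at least 17.8-fold more over both sections (at least 10.2 in section 1 and 22.2 in section 2), and its neighbour Myf5 had 16 and 31 against 1 and 2 (pooled ratio 13.3, 4.27 to 66.6). Myf5 and Myf6 lie next to each other on chromosome 10 (107482908 to 107486927 and 107492848 to 107494723). 

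Factors of branchiomeric muscle were present too. Tbx1 stood at 32 and 75.9 CPM in striated sums, 4.53 and 9.46 in smooth sums and 17.4 and 25.1 in the rest (3.04 ± 0.39, edgeR adjusted p = 0.00174). Msc stood at 54.4 and 52.4, 8.16 and 9.46, and 2.41 and 1.76 CPM, and Isl1 at 20.7 and 27.9, 2.72 and 9.46, and 0.76 and 1.41 CPM. Unlike Tbx1, both were also above the rest in smooth spots (edgeR adjusted p = 0.0122 for Msc and 0.035 for Isl1). These smooth levels rest on few UMIs, since 3 UMIs correspond to 2.72 and 4.73 CPM in the smooth sums. Between the sides Isl1 did not pass by DESeq2's Wald test (adjusted p = 0.0744), nor by edgeR with the highest 10% of spots (adjusted p = 0.0537). Pax3 had 0 UMIs in all 6 sums, and Pax7, a factor of muscle stem cells, had 6 and 11 in striated sums and 0 in smooth sums, too few to be tested. Tcf21, another branchiomeric factor that fibroblasts also express, stood at 95 and 64.7 CPM in striated and 97 and 115 in smooth sums (adjusted p = 0.507, edgeR).

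Of 14 tested genes of progenitors and fusion, 5 were higher in striated spots and 0 in smooth spots (16 in the list; median 0.89); with the highest 25% of spots 4 were higher on each side by edgeR and the median was 0.12. DESeq2's Wald test called 5 and 1 of 14. Mymk and Mymx, the membrane proteins that fuse myoblasts, led them: Mymk stood at 77.8 and 145 against 0 and 12.6 CPM, and Mymx at 76.9 and 196 against 3.63 and 4.73 CPM (5.0 ± 0.37, edgeR adjusted p = 3.25e-05). Cdh15, the cadherin of myoblasts, stood at 50.1 and 89.2 against 2.72 and 9.46 CPM. Met, the receptor of hepatocyte growth factor, was also higher in striated spots, at 54.4 and 42.4 against 12.7 and 15.8 CPM, with 32.8 and 36.7 in the rest. Des, the intermediate filament of both kinds of muscle, leaned to smooth spots, with 1691 and 1948 against 799 and 861 CPM and 273 and 135 in the rest, and missed the threshold (−1.02 ± 0.28, edgeR adjusted p = 0.0513), which it passed without the rest in the fit (edgeR adjusted p = 0.00996).

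Energy genes leaned to the striated side. Of 15 tested, 9 were higher in striated and 1 in smooth spots (20 in the list; median 1.53). Cox6a2, the heart and muscle form of a cytochrome oxidase subunit, stood at 190 and 667 CPM against 3.63 and 3.15 (6.78 ± 0.40, edgeR adjusted p = 5.88e-06). Pgam2 had 106 and 256 UMIs in striated sums and 1 and 2 in smooth sums, a pooled ratio of 102 (34.6 to 497). Mb, myoglobin, had 14 and 10 UMIs in striated sums and none in smooth sums, at least 3.12-fold more over both sections (at least 4.45 in section 1 and 2.36 in section 2). Hspb6, a small heat shock protein of muscle, was the member higher in smooth spots, at 204 and 274 against 57 and 53.5 CPM (−2.0 ± 0.27, edgeR adjusted p = 0.00232). By the rule for named genes, Cavin4, a caveolar protein of muscle, Myoz2 and Tceal7 were also among the 12 largest differences on the striated side, with 42 and 58, 62 and 149, and 129 and 374 UMIs in striated sums and at most 3 in a smooth sum.

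Related proteins were compared within families, since the share of a pair's UMIs that fall on the striated form needs no scaling between sums. In 16 of 19 pairs without a selecting gene this share was higher in striated than in smooth spots in both sections. Actn2 took 68.3% and 89.4% of the UMIs of Actn2 and Actn1 in striated spots, against 0.258% and 3.81% in smooth spots. Cacna1s took 55.8% and 75.0% of the UMIs of Cacna1s and Cacna1c, against 0 of 70 and 0 of 58. Both members of a pair were called in opposite directions in 6 pairs. In other pairs the common form hardly differed: Pgam1, the common mutase, stood at 171 and 134 CPM in striated and 173 and 180 in smooth sums, so the Pgam2 share of 34.9% and 68.1% against 0.521% and 1.72% lay in the level of Pgam2. The 3 exceptions were Casq1 and Casq2, Eno3 and Eno1, and Slc25a4 and Slc25a5. Casq1 took 31.0% and 32.3% of calsequestrin UMIs in striated spots and 63.6% and 53.5% in smooth spots.

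**Figure D4:**
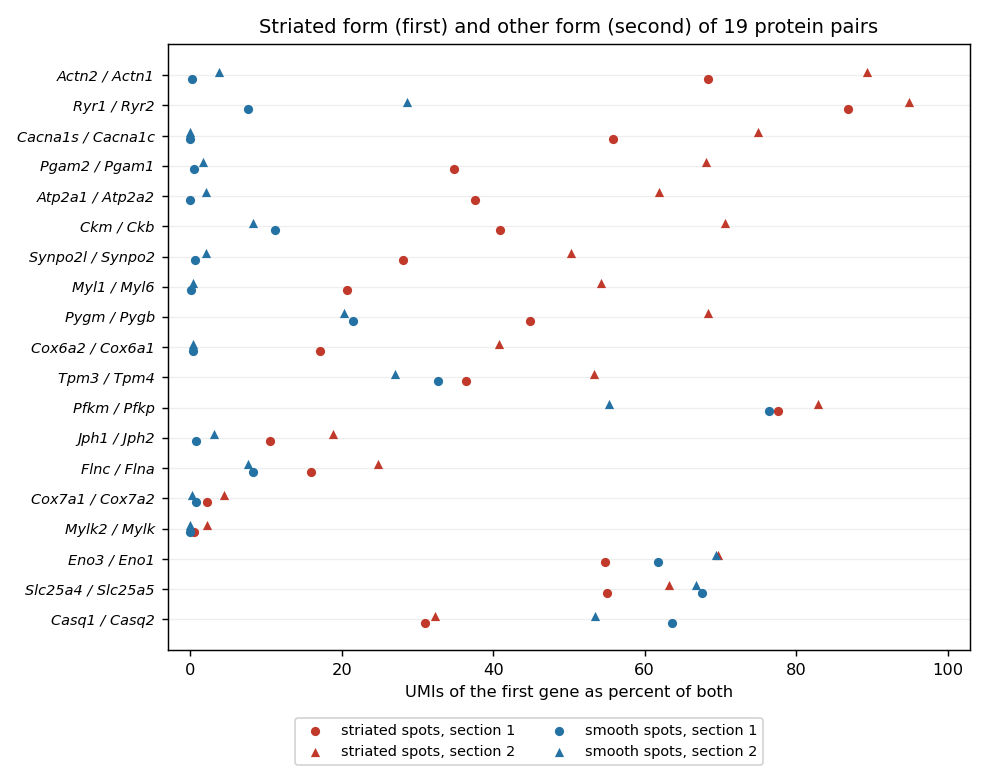
UMIs of the striated form as a percent of both members, for 19 pairs without a selecting gene, in striated (red) and smooth (blue) spots of section 1 (circles) and section 2 (triangles). For most pairs the red symbols lie to the right of the blue ones, and the order turns for Casq1 and Casq2 at the bottom.

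Smooth muscle genes had smaller differences than striated genes. Of 27 tested contractile and cytoskeletal genes, 22 were higher in smooth spots and 0 in striated spots (28 in the list), with a median log2 fold change of −1.14. Mylk, myosin light chain kinase, stood at 2450 and 2343 CPM in smooth sums, 585 and 350 in striated sums and 375 and 172 in the rest (−2.32 ± 0.25, edgeR adjusted p = 0.000509). Myl9 stood at 6508 and 6338 against 2401 and 1673 CPM, and Vcl at 363 and 394 against 188 and 190 CPM. Flna, filamin A, stood at 2961 and 2939 against 1143 and 847 CPM, while its muscle relative Flnc stood at 267 and 241 against 217 and 280 CPM. Of this list, 15 genes were also above the rest in striated spots, among them Synpo2, an actin-binding protein of smooth muscle, with 389 and 364 CPM in smooth, 106 and 109 in striated and 42.6 and 14.1 in the rest.

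The largest differences towards smooth spots included genes outside the lists. Synm, synemin, an intermediate filament protein that binds desmin, stood at 148 and 196 CPM in smooth sums, 32 and 16.7 in striated sums and 11.4 and 4.39 in the rest (−2.70 ± 0.37, edgeR adjusted p = 0.00227). Rbpms2, an RNA-binding protein of visceral smooth muscle, stood at 90.6 and 64.7 against 13.8 and 12.3 CPM (−2.49 ± 0.29, edgeR adjusted p = 0.000909). Enpep, aminopeptidase A, stood at 97.9 and 78.9 against 19 and 12.3 CPM, and Fgl2 at 420 and 355 against 92.4 and 74.7 CPM. Tspan2, St6gal2, Itpk1 and Optc followed, with log2 fold changes from −2.20 (Optc) to −2.08 (Itpk1). Ccl21a, a chemokine of lymphatic endothelium counted here under the identifier ENSMUSG00000094686, had 86 and 118 UMIs in smooth sums and 2 and 0 in striated sums; near-identical copies of this gene exist, so its reads may be split.

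Of 20 tested receptors and channels, 8 were higher in smooth spots and 0 in striated spots (25 in the list; median −1.08). Cacna1c, the L-type channel through which calcium enters smooth muscle, stood at 63.5 and 91.5 CPM in smooth sums and 16.4 and 16.7 in striated sums, near the 14.9 and 10.4 of the rest (−2.08 ± 0.32, edgeR adjusted p = 0.00445). Kcnmb1, the smooth muscle subunit of the large potassium channel, stood at 58.9 and 45.7 against 10.4 and 7.81 CPM. Chrm2, a muscarinic receptor for acetylcholine, stood at 199 and 181, 51 and 55.8, and 15.8 and 3.51 CPM in smooth, striated and rest sums. Pcp4, a calmodulin-binding peptide, stood at 219 and 172 against 56.2 and 39 CPM. Of the receptors for acetylcholine, Chrna1 was thus higher in striated and Chrm2 in smooth spots.

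Among 18 tested transcription factors of smooth muscle and foregut mesenchyme, 5 were higher in smooth spots and 0 in striated spots (25 in the list; median −0.70). Foxf1 and Foxf2, mesenchymal targets of Hedgehog signals, stood at 101 and 109 against 44.1 and 52.4 CPM and at 98.8 and 103 against 37.1 and 33.5 CPM. Osr1, Foxp2 and Meis1 completed the 5. DESeq2's Wald test called 2 of 18, without Foxf1, Foxp2 and Meis1, and with spots thinned to 5000 UMIs edgeR called 1 of 13, where Meis1 fell to −0.49. Srf, serum response factor itself, stood at 18.1 and 24.5 CPM in striated and 18.1 and 23.7 in smooth sums (0.14 ± 0.33, edgeR adjusted p = 0.862). Its partner Myocd had 2 and 0 UMIs in striated and 6 and 12 in smooth sums and was not tested.

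Markers of cells that accompany gut smooth muscle were partly higher on the smooth side. Kit and Ano1, markers of interstitial cells of Cajal, the pacemakers of the gut wall, stood at 95.2 and 64.7 against 24.2 and 26.8 CPM (−1.57 ± 0.29, edgeR adjusted p = 0.00948) and at 74.3 and 69.4 against 34.6 and 23.4 CPM; they were the 2 called among 6 tested. DESeq2's Wald test called 1 of 6, without Ano1 (adjusted p = 0.092), and with spots thinned to 5000 UMIs edgeR called 0 of 3. Of 21 tested genes of enteric neurons and glia, 2 were higher in smooth spots and Erbb3, which was higher still in the rest, in striated spots; the summed level of the list was 664 and 527 CPM in smooth, 273 and 672 in striated and 159 and 167 CPM in rest sums. The order of the sides thus differed between the sections. Of 28 fibroblast and matrix genes, 1 was called (Thbs1, higher in smooth), with a median of −0.39; DESeq2's Wald test called 0 of 28. Of 11 tested endothelial genes, Cldn5 was higher in smooth spots, and on UMIs not used to choose spots 0 of 9 were called. The calls in the fibroblast and endothelial lists lay below or near the share of all genes tested (7.58%). Pericyte (7 tested), immune (11 tested) and proliferation (14 tested) genes gave 0 calls in either direction by edgeR's quasi-likelihood test and 0 by DESeq2's Wald test, with 0, 3 and 3 members at an unadjusted edgeR p under 0.05. With the highest 25% of spots per score, 1002 of 11688 genes tested were higher in smooth spots by edgeR. These included 4 of 8 pericyte, 8 of 11 immune, 1 of 14 proliferation, 8 of 12 endothelial and 23 of 28 fibroblast genes.

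Epithelial RNA moved with the striated side. Of 15 basal epithelial genes, 11 were higher in striated than in smooth spots, and of 12 tested suprabasal genes 11 were; 0 were lower. Krt13, a keratin of suprabasal esophageal epithelium, stood at 6635 and 2295 CPM in striated sums, 1201 and 1030 in smooth sums and 12609 and 12579 in the rest (1.98 ± 0.31, edgeR adjusted p = 0.00451). Both sides were thus below the rest, smooth further than striated, and section 1 carried more epithelium in its striated sum than section 2. Epithelium-rich spots were also left out before the sides were chosen. Then 4 of 15 basal and 0 of 12 suprabasal genes were called, with medians of 1.02 and 1.18. Of 10164 genes tested there, 242 were higher in striated and 153 in smooth spots. Under that choice 9 of 10 thick filament, 12 of 14 Z disc and 20 of 27 smooth contractile genes were called, all of them also called in the same directions with all spots. Erbb3, Wnt4, Fgfr3, Hes1, Lfng, Junb, Msln and Cidea, which are described as higher in striated spots, lost their call under that choice. So did Krt13 and Mb on the striated side, and Tpm2, Synpo2, Chrm2, Pcp4, Foxf1, Cldn5, Rspo3, Wnt5a, Grem1 and Id1 among those on the smooth side, with the same direction. That choice also holds fewer spots. Among the lost calls some folds were about as large as before: −2.55 for Rspo3, −1.50 for Synpo2 and −1.79 for Pcp4. Others were smaller, as for Krt13 with 1.14 against 1.98 with all spots. The suprabasal median was 1.18 against 1.97 with all spots. The part of epithelial RNA in the lost calls was not tested.

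Other tissues were checked by their defining genes. Blood genes were higher in striated spots, 4 of 4 tested: Hbb-bs, a beta-globin, stood at 1144 and 1708 CPM in striated sums, 641 and 361 in smooth sums and 272 and 168 in the rest. The summed blood list was 2306 and 3499 CPM in striated and 1334 and 710 CPM in smooth sums, and its part in the differences was not tested. Heart markers were near 0 (summed list 22.5 and 7.81 CPM in striated, 7.25 and 7.89 in smooth and 18.2 and 19 in rest sums), as were cartilage markers (at most 5.44 CPM). Mesothelial Msln, 1 of 2 tested, brown fat Cidea, 1 of 1, and the immediate early gene Junb, 1 of 9, were higher in striated than in smooth spots. All 3 were highest in the rest in section 2. For the list of Junb this is near the share of all genes tested (7.58%), and the lists of Msln and Cidea are too small to set beside it.

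Signalling genes were read from lists of pathway members. In the Wnt list 15 of 24 genes were tested; Rspo3, an R-spondin, Wnt5a, Sfrp2 and Nkd1 were higher in smooth spots and Wnt4, an epithelial ligand, in striated spots. Rspo3 stood at 27.2 and 17.4 CPM in smooth and 2.59 and 4.46 in striated sums (−2.63 ± 0.58, edgeR adjusted p = 0.0216). Lgr5, a receptor for R-spondins (chromosome 10, 115450314 to 115587780), had 9 and 3 UMIs in striated sums and 6 and 2 in smooth sums, too few to be tested. These are 7.78 and 3.35 CPM against 5.44 and 3.15 CPM, near 3 counts per sum in section 2, with 6.59 and 9.49 CPM in the rest. Its relatives Lgr4 (51.8 and 36.8 against 40.8 and 22.1 CPM) and Lgr6 (3 and 5 against 13 and 7 UMIs) did not pass (edgeR adjusted p = 0.423 and 0.357).

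In the BMP and TGF-beta list, 7 of 19 tested genes were higher in smooth and 2 in striated spots. Id1, Id2, Id3 and Id4, targets of BMP signals whose products bind and block basic helix-loop-helix factors of the MyoD kind, were higher in smooth spots. The calls of Id1 (DESeq2 adjusted p = 0.219, and 5 other alternatives) and Id4 (edgeR adjusted p = 0.0606 without the block and 0.055 with thinned spots) were lost under alternatives, and those of Id2 and Id3 under none run. Id2 stood at 484 and 450 CPM in smooth, 137 and 74.7 in striated and 216 and 143 in rest sums (−2.08 ± 0.22, edgeR adjusted p = 0.000432), and Id3 at 371 and 292 against 148 and 136 CPM. The antagonist Grem1 and the activin subunit Inhba were also among the smooth members. Fst, follistatin, an activin and myostatin antagonist, was higher in striated spots, at 32.8 and 65.8 against 16.3 and 18.9 CPM (1.54 ± 0.39, edgeR adjusted p = 0.0401). Its call was lost with DESeq2 (adjusted p = 0.0893), without the block, on UMIs not used to choose spots (1.31, edgeR adjusted p = 0.144) and with the highest 25% of spots (0.63, edgeR adjusted p = 0.274). Bmp7 stood at 31.1 and 26.8 against 5.44 and 6.31 CPM.

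Of 11 tested Hedgehog genes 1 was called, near the share of all genes (7.58%). It was Hhip, a binding protein that limits the signal, higher in smooth spots (63.5 and 63.1 against 22.5 and 22.3 CPM, −1.40 ± 0.25, edgeR adjusted p = 0.00833). DESeq2's Wald test did not call Hhip (adjusted p = 0.0506). In the FGF and IGF list 4 of 17 tested genes were higher in striated spots. Fgfr4, an FGF receptor of differentiating myoblasts, stood at 24.2 and 46.9 CPM in striated, 6.35 and 4.73 in smooth and 1.27 and 1.58 in rest sums (2.61 ± 0.48, edgeR adjusted p = 0.00917). Igf2 and H19, neighbouring imprinted genes, were also higher in striated spots, at 862 and 728 against 424 and 528 CPM and at 2220 and 2204 against 1233 and 1434 CPM, without exceeding the rest. Fgfr3 followed the epithelial pattern, with 128 and 158 CPM in the rest. In the Notch list Hes1 and Lfng, 2 of 13 tested, were higher in striated spots, and both were below or level with the rest there.

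**Figure D5:**
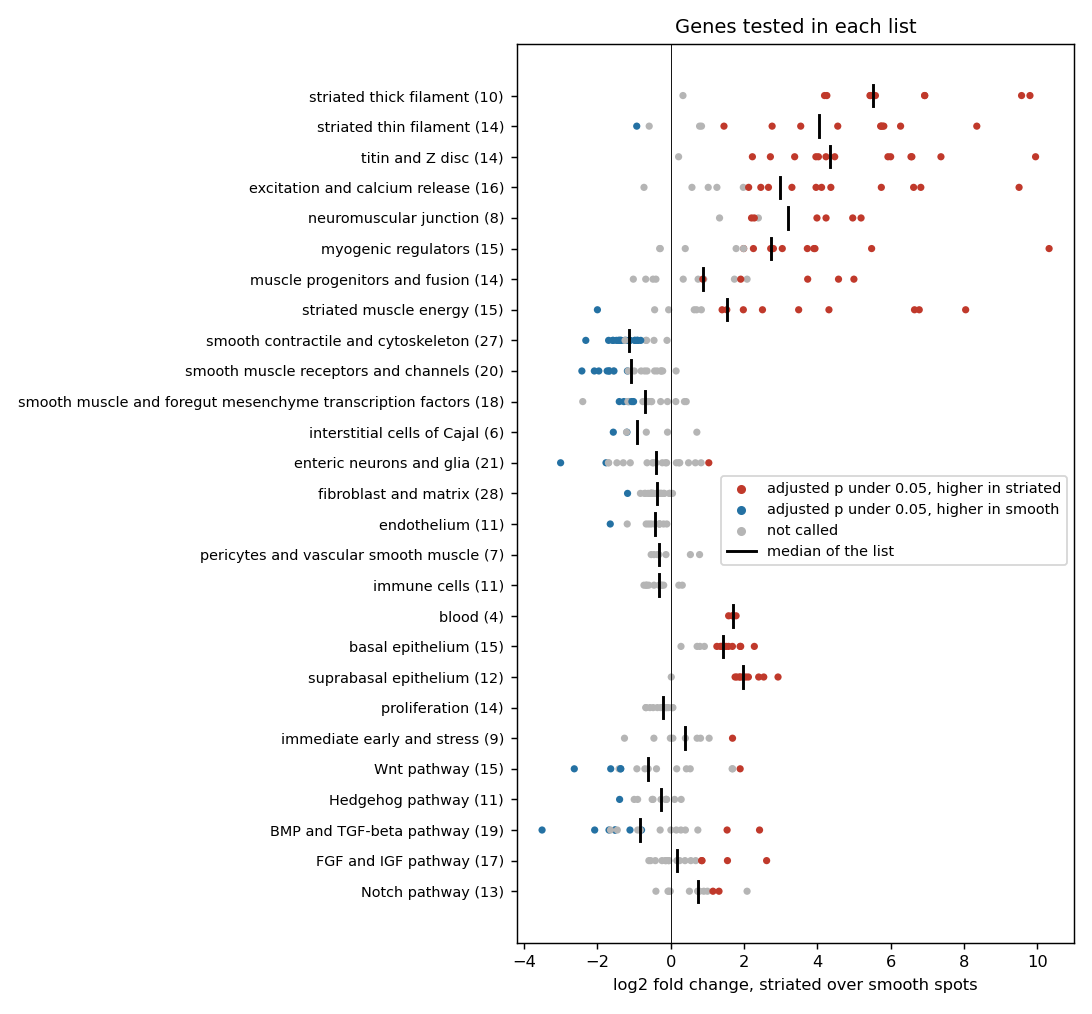
Log2 fold change of striated over smooth spots for each tested gene of the lists with at least 4 tested genes (number in brackets), coloured where the edgeR adjusted p is under 0.05; the black bar is the median of the list. Striated lists reach up to about 10, smooth muscle lists lie mostly below 0, and the epithelial and blood lists lie between 0 and 3.

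The embryo sections, which the choice of P0 spots did not use, were scored with the same 12 genes, and the highest 2% of spots by each score were taken (64 striated and 64 smooth spots in the E13.5 section, and 72 of each in the E16.5 section, with 0 in both sets). These sections hold a whole embryo, so the spots are muscle of any organ, and with 1 section a stage there is no test. Of the 279 genes higher in smooth spots at P0, 234 of 259 with at least 20 UMIs (90.3%) had the same direction at E13.5 and 236 of 263 (89.7%) at E16.5, where 57.3% and 74.8% of all genes tested lay on the smooth side. Of the 547 genes higher in striated spots, 267 of 364 (73.4%) and 229 of 425 (53.9%) had the same direction, where 42.7% and 25.2% of all genes lay on the striated side. The log2 ratio of striated over smooth spots was 3.29 for Tnnt2 in the E13.5 section and −0.13 in the E16.5 section. In the same order it was 2.08 and 5.51 for Casq1, and 6.67 and 5.36 for Myl1, which lay on the striated side throughout. Heart markers summed to 1358 CPM in smooth and 105 CPM in striated spots at E16.5, and to 166 and 78.5 CPM at E13.5. Their part in the Tnnt2 ratios was not tested.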

How the data were processed

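The 4 Visium sections were used as 10x count matrices. The authors deposited UMI counts per spot and gene, made with Space Ranger 2.0.0 on mm10 per the submitters' processing notes, with no normalization; the matrices list 32285 genes. The P0 matrices hold 10261248 and 7357333 UMIs over 366 and 271 spots, and 3 spots of section 1 and 7 of section 2 with under 500 UMIs or off the tissue were left out. UMIs were summed per section and class (striated, smooth, rest), the 12 selecting genes were removed, and the 6 sums were fitted with edgeR 4.0.16 (R 4.3.3; filterByExpr, TMM, quasi-likelihood F test, section as block, 2 residual degrees of freedom, Benjamini-Hochberg over all 10904 genes, threshold 0.05). The block reflects that the classes of a section come from the same library. Log2 fold changes carry an SE worked back from the test, as the absolute fold change over the square root of its F statistic. It thus restates the test, and n is 2 sections. DESeq2 1.42.0 was used for alternatives, and limma 3.58.1 was present but gave no test. Python 3.11.15 (numpy 2.4.6, scipy 1.17.1, pandas 2.3.3, matplotlib 3.10.9) made the sums, tables and plots. The scripts were tested on simulated counts.

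A gene at 0 on a side is given as at least N-fold against 3 counts per library, and with 1 to 3 counts as a pooled ratio with an exact 95% counting interval, which covers counting error only. Epithelium-rich spots are the highest 25% of a section by 10 epithelial genes. Spots are mixtures, so no doublet caller was run. Named genes are the 12 selecting genes, the 12 largest called differences of each direction with the same sign in both sections and a mean of at least 50 CPM, up to 8 members of each list by size of difference plus members that oppose their list, the pairs, and Lgr5, Lgr4 and Lgr6. Myh2, Myh4, Myom1, Tnnt2, Fhl3, Musk, Isl1, Pax7, Pax3, Vcl, Myocd, Krt5, Id1 and Id3 fall outside that rule and were named after their values were seen. The spots, members and lists were chosen with earlier results of these data known. Gene positions and promoters are from RefSeq on GRCm38.p6, where 500 of 501 genes looked up were found. Some list members are not reported here by name.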

Additional observations from a re-analysis of the deposited data

Results flagged for a closer look

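Tpm2, beta-tropomyosin, was on the smooth side in both P0 sections and on the striated side in both embryo sections. Its log2 ratio of striated over smooth spots was −1.16 in section 1 and −0.95 in section 2, against 0.78 at E13.5 and 1.19 at E16.5. Hbb-bs ran the other way, with 0.84 and 2.24 at P0 against −1.60 at E13.5 and −2.82 at E16.5. Fgfr3 had 1.86 and 0.87 at P0 against −0.86 and −2.30 in the embryos, Hes1 had 1.44 and 0.47 against −0.044 and −0.68, and Krt5 had 1.22 and 1.39 against −1.53 and −2.84. These differences between P0 and the embryo sections were not tested. The embryo spots were drawn from a whole embryo and not from esophagus, so stage and organ cannot be told apart.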

How the results depend on the processing

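No gene named in the text and tested changed the sign of a called difference under any alternative run. The main counts were 547 genes higher in striated and 279 higher in smooth spots, 1077 and 922 for striated against rest, and 1899 and 1752 for smooth against rest. With the highest 10% of spots per score the first contrast gave 206 and 131, and with the highest 25% it gave 1391 and 1002, when striated against rest gave 519 and 147. Spots chosen on a random split of the UMIs and counted on the others gave 343 and 185, and 649 and 573 against the rest. Spots thinned to 5000 UMIs gave 238 and 123, 234 and 248, and 586 and 636 in the 3 contrasts. With epithelium-rich spots left out first they were 242 and 153, 693 (higher in striated than rest), and 865 and 1065. DESeq2's Wald test gave 142 genes higher in smooth than striated spots, 541 and 384 for striated against rest, and 991 and 1094 for smooth against rest. Testing every gene with 1 count gave 936 and 487, and 1447 genes higher in the rest than in striated spots. The causes of these changes were not tested, beyond fewer spots or UMIs in some of the sums.

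The fit without the replicate block gave 462 and 259 genes, of which 448 and 235 were among those of the fit with it. The section is a true block here, since the sides of a section share a library. Of 111 tested genes in the text, 10 lost their call without it, 20 with epithelium-rich spots left out first, 26 with the highest 10%, 16 with DESeq2's Wald test, 15 on UMIs not used to choose the spots and 15 with spots thinned to 5000 UMIs. On UMIs not used to choose the spots, the lost calls were Tpm2, Osr1, Meis1, Ano1, Erbb3, Cldn5, Cidea, Junb, Wnt4, Wnt5a, Grem1, Fst, Fgfr3, Lfng and Id1. DESeq2 did not call Foxp2, Meis1, Foxf1, Ano1, Erbb3, Thbs1, Msln, Cidea, Rspo3, Hhip, Grem1, Fst, Lfng, Hes1, Isl1 and Id1. Thinned spots lost Foxp2, Osr1, Meis1, Foxf1, Ano1, Erbb3, Thbs1, Cldn5, Junb, Nkd1, Id4, Fgfr3, Lfng, Hes1 and Id1. Leaving out a section only returns the ratio of the other one, without a test. Of the 222 such ratios none turned a called sign. This was fixed beforehand, since every called gene had the same sign in both sections. Only 95 of the 111 genes were called, so ratios of the others could not count as turned. The depth of the smooth sum of section 2, 633934 UMIs, limits genes below 4.73 CPM.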
